A study of Mus musculus with 12 samples.

Results

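Serpins are a large family of proteins that share one fold. Most of them trap and inactivate proteases by offering a reactive loop as bait and changing shape once it is cut, and a few, such as the collagen chaperone *Serpinh1*, have no protease target. Many serpins, *Serpini1* and *Serping1* among them, are secreted through the endoplasmic reticulum, clade B members work mainly in the cytosol, and *Serpini1*, named neuroserpin for its role in neurons, is best known as an inhibitor of tissue plasminogen activator. In antibody-secreting cells the transcription factor Xbp1 drives the secretory program, and Mist1, the basic helix-loop-helix protein encoded by *Bhlha15*, is known from secretory cells of the pancreas and salivary gland as well as from plasma cells.

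The 9 serpin genes described here are *Serpini1*, *Serpinb1a*, *Serpinb6a*, *Serpinb6b*, *Serpinb9*, *Serpina3f*, *Serpina3g*, *Serping1* and *Serpinh1*. They were taken by symbol from the mRNA-seq tables of mouse plasmablasts (PBs), which list 24189 genes, and of plasma cells (PCs), which list 24732 genes. Both kinds of table hold 63 genes whose symbol starts with Serpin, of which 19 reached 1 TPM (transcripts scaled to the same sum in every library) in at least 2 of the 10 libraries. *Serpini1* was chosen by its measured TPM, which was lower in each of the 3 mutant genotypes than in the matching controls, so that its values in those comparisons are given as a description with no test, and the other 8 genes are compared with it.

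All mice were C57BL/6, and each of the 5 mRNA-seq groups had 2 libraries. PBs of 3 genotypes, Xbp1(fl/fl) as the control, Cd23-Cre Xbp1(fl/fl), called *Xbp1* cKO here, and Bhlha15(CreER/CreER), called CreER, were grown from B cells on fibroblast feeder cells and sorted on day 8 by surface markers that include CD138. PCs labelled wildtype, for which the study's methods give the floxed *Bhlha15* genotype without Cre, and PCs of the genotype Cd23-Cre Bhlha15(fl/fl), called *Bhlha15* cKO, were sorted as TACI+CD138+ spleen cells on day 7 after immunization with NP-KLH. Cd23-Cre acts in B cells before they become PBs or PCs, so that the floxed gene is already recombined at the start of the culture or response, whereas the CreER allele is a knock-in that disrupts *Bhlha15* in every cell of the mouse and was set against the Xbp1(fl/fl) control, which are not its littermate controls. Mist1 binding was mapped by streptavidin chromatin precipitation in 2 experiments on LPS-stimulated PBs of the genotype Bhlha15(fl/fl) R26(BirA/BirA), in which the floxed *Bhlha15* allele also carries a biotin acceptor tag. The labels do not say whether libraries of a group came from separate mice or cultures, so that p-values measure only the spread between these libraries, and an exact permutation test of 2 against 2 libraries cannot go below p = 0.333.

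The targeted genes followed the labels. *Bhlha15* was at 176 and 159 TPM in control PBs, 0.210 and 0.551 TPM in CreER PBs, 258 and 242 TPM in wildtype PCs and 14.4 and 16.6 TPM in *Bhlha15* cKO PCs. It was also at 3.57 and 2.60 TPM in *Xbp1* cKO PBs, so that both mutant PB genotypes had little *Bhlha15* RNA. *Xbp1* fell by 0.84 on the log2 scale in *Xbp1* cKO PBs (SE 0.12, adjusted p = 0.00144, limma). TPM per gene also counts reads outside the floxed part, and their part in the remaining *Xbp1* RNA was not tested. Genes of other cell types were detected in all libraries. The summed level of 14 fibroblast genes was 1042 to 2013 TPM in the 6 PB libraries and 10.9 to 14.1 TPM in the 4 PC libraries, and that of 12 neutrophil genes was 6.52 to 14.03 TPM in control and CreER PBs, 142 and 143 TPM in *Xbp1* cKO PBs and 480 to 1016 TPM in PCs. Of the neutrophil genes *Elane* was at 0 in control and *Xbp1* cKO PBs, and *Mpo*, *Mmp8* and *Retnlg* were at 0 in control PBs. T and NK cell genes summed to 8.37 to 12.04 TPM in PBs and 77.9 to 101 TPM in PCs. Among them *Cd3e*, *Cd8a*, *Nkg7* and *Ncr1* were at 0 in control and CreER PBs. Macrophage genes summed to 32.7 and 35.6 TPM in *Xbp1* cKO PBs, 135 to 167 TPM in the other PBs and 206 to 249 TPM in PCs. In PBs only *Cd68* and *Lyz2* of the macrophage genes could be tested, and *C1qa* and *C1qb* were at 0 in control and CreER PBs. The log2 differences in *Xbp1* cKO PBs were -3.07 for *Cd68* and 1.26 for *Lyz2*, so that the lower sum does not stand for the whole list. The plasma cell markers listed, *Sdc1*, *Prdm1*, *Irf4* and others, were at 1 TPM or more in every group and summed to 38371 to 41820 TPM in control and CreER PBs, 21029 and 21660 TPM in *Xbp1* cKO PBs and 91316 to 98451 TPM in PCs. In such bulk RNA, fewer cells of a type and less RNA per cell cannot be told apart.

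*Serpini1* lies on chromosome 3 on the plus strand at chr3:75361469-75447417 (mouse build mm9), with 9 exons in its longest annotated transcript, and starts next to a gene that runs the other way. *Pdcd10*, which encodes an adaptor protein of the cerebral cavernous malformation complex, is on the minus strand at chr3:75320412-75360778, and its start is 691 bp from that of *Serpini1*. On the other side the next annotated gene is the small nucleolar RNA SNORA17, 71295 bp away, which the tables do not list, and the next coding gene, *Golim4*, is 232688 bp away. The 250 bases just upstream of the annotated *Serpini1* start, chr3:75361219-75361468 on the plus strand, are shown because they lie between these starts and inside a Mist1 region. They hold neither CAGCTG nor CATATG, which are forms of the CANNTG box that basic helix-loop-helix proteins bind. Other forms of that box, CAGGTG and CAGATG, do occur in these bases, and such other forms were not searched for in any region. CAGCTG and CATATG each read the same on both strands, so that a search of 1 strand covers both.
Serpini1 promoter: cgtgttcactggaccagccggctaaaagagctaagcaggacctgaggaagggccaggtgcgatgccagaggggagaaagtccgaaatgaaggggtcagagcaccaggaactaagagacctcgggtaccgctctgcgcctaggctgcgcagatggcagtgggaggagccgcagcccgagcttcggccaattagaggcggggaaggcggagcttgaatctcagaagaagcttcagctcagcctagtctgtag

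Mist1 was bound at these neighbouring starts and in the first intron of *Serpini1*. The peak lists held 29413 and 30247 peaks, and 23804 common regions remained where peaks of both experiments overlapped by at least 1 bp. A common region of 3765 bp at chr3:75359673-75363437 ran from -1796 to +1968 bp of the *Serpini1* start and covered the start of *Pdcd10* as well. In experiment 1 these starts lay under separate peaks, from -1332 to -512 bp for *Pdcd10* and from -423 to +1968 bp for *Serpini1*. The peak of experiment 2, from -1796 to +1895 bp, covered both starts and joined them into this region. A second common region of 1004 bp at chr3:75377596-75378599 lay within intron 1, from 16127 to 17130 bp past the start. A peak at chr3:75437407-75438004 in intron 6 was found in experiment 1 and not in experiment 2. The peak lists give positions without heights, so that the strength of binding could not be compared. The lists used here are shorter than those the study's text describes, so that shares of genes with a region, and the absence of a peak, hold for these lists only.

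The start region of *Serpini1* held 1 CATATG, 777 bp into the gene in intron 1, and no CAGCTG, and the intronic region held 1 CAGCTG, 16706 bp into the gene, and no CATATG. These are common in Mist1 regions: of windows of 3765 bp centred on the common regions 60.2% held CATATG and 88.1% CAGCTG, and of windows of 1004 bp 28.4% and 62.5% did. The 46 bases around each box are shown on the plus strand, with the box in capitals, at chr3:75362226-75362271 and chr3:75378155-75378200. A match of letters is a description and not a mapped binding site.
Serpini1 hexamer CATATG: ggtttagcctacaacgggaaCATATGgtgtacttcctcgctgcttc
Serpini1 hexamer CAGCTG: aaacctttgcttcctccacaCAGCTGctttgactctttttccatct

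**Figure D1:**
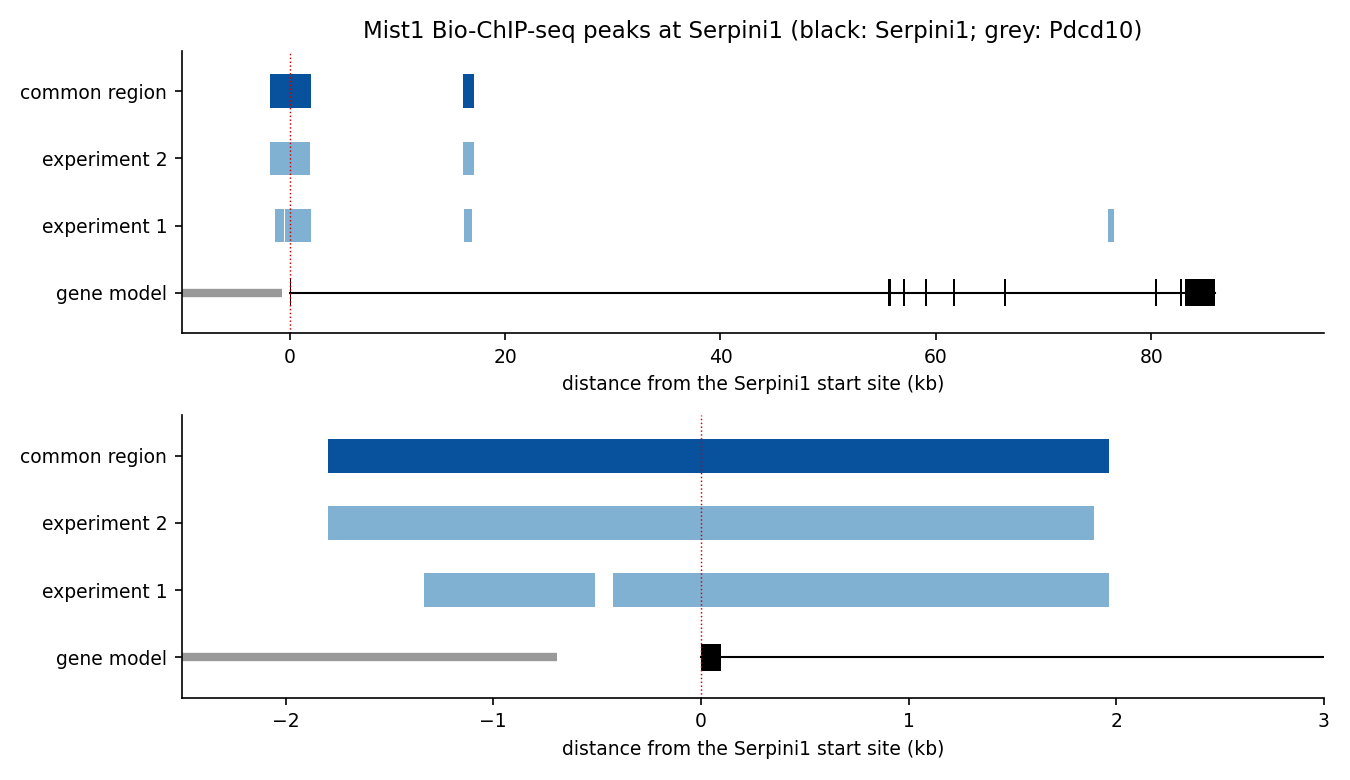
Mist1 peaks at *Serpini1* in PBs, drawn by distance in kb from the annotated *Serpini1* start, with the exons and the neighbouring *Pdcd10* below the peaks of experiments 1 and 2 and the regions common to both. The common region around 0 covers both gene starts, which lie under separate peaks in experiment 1 and under the same peak in experiment 2. The second common region lies in intron 1, and the peak in intron 6 is in experiment 1 only.

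*Serpini1* had the largest fitted decrease of the serpins listed in each of the 3 mutant genotypes, the comparisons it was chosen by. Control PBs had 24.2 and 23.4 TPM, *Xbp1* cKO PBs 4.50 and 3.65 TPM, and CreER PBs 5.93 and 6.56 TPM. Wildtype PCs had 45.7 and 35.5 TPM and *Bhlha15* cKO PCs 3.79 and 5.31 TPM. No mutant library reached the lowest library of its control group, and the wildtype PCs, the group with the highest level, also had the widest spread (40.6 ± 7.22 TPM, SD, n = 2).

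Set against its controls, the mean *Serpini1* level was 17.1% in *Xbp1* cKO PBs, 26.2% in CreER PBs and 11.2% in *Bhlha15* cKO PCs. As differences of log2(TPM + 0.1) after libraries were scaled to a common median, these were -2.73 (SE 0.16), -1.87 (SE 0.16) and -3.12 (SE 0.21). Both PB values were taken against the same 2 control libraries and are not independent. Lower *Serpini1* RNA was thus measured where *Bhlha15* itself was disrupted and where *Xbp1* was deleted and *Bhlha15* RNA was low. The neutrophil genes summed to 142 and 143 TPM in *Xbp1* cKO PBs, 6.52 and 12.9 TPM in CreER PBs and 13.5 and 14.03 TPM in the controls, and their part in the *Serpini1* differences was not tested.

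**Figure D2:**
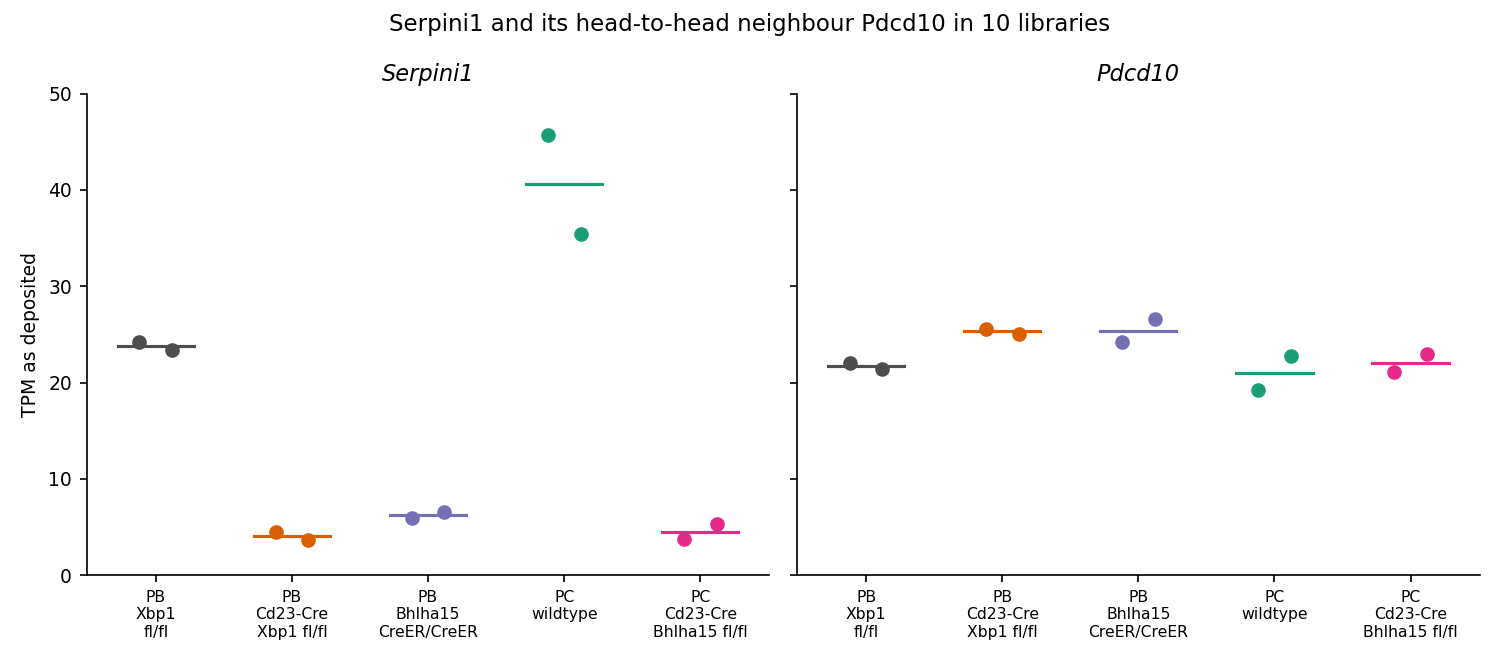
*Serpini1* and its neighbour *Pdcd10*, which starts 691 bp away on the other strand, in TPM in each of the 10 libraries (points) with the group mean (bar). *Serpini1* is at 23.4 TPM or more in every control library and at 6.56 TPM or less in every mutant library, whereas *Pdcd10* is between 19.3 and 26.6 TPM in all of them.

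The difference between mutant PBs could be tested, because the choice of *Serpini1* did not fix its direction. *Serpini1* was lower in *Xbp1* cKO PBs than in CreER PBs by a log2 difference of -0.85 (SE 0.16, 95% confidence interval -1.21 to -0.50, adjusted p = 0.00453, limma over all genes), with no overlap between the groups. In this comparison 17.8% of all genes passed as lower and 9.34% as higher, and the remaining *Bhlha15* RNA went the other way, 2.58 higher on the log2 scale in *Xbp1* cKO PBs (SE 0.35, adjusted p = 0.000879). *Serpini1* kept this call under all 14 alternative settings, with log2 differences from -1.01 to -0.61.

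*Serpini1* was higher in wildtype PCs than in control PBs by 0.64 on the log2 scale (SE 0.20, 95% confidence interval 0.19 to 1.10, adjusted p = 0.0160, limma). This is 1.70-fold in TPM as deposited. The control PBs are the libraries that the choice of the gene used, and the wildtype PCs likewise, but not the difference between them. Here 38.4% of all genes passed as lower and 37.6% as higher, and cell type, culture against tissue and the set of libraries cannot be told apart. The call was lost without control PB replicate 2 (0.59, adjusted p = 0.0759) or wildtype PC replicate 1 (0.44, adjusted p = 0.122).

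The order of the groups was wildtype PCs, control PBs, CreER PBs, *Bhlha15* cKO PCs and *Xbp1* cKO PBs. The first 3 did not overlap with one another or with the remaining groups, and the last 2 overlapped, with ranges of 3.79 to 5.31 and 3.65 to 4.50 TPM. The loss of *Bhlha15* was accompanied by a larger log2 difference in PCs than in PBs, with a difference between the effects of -1.23 (SE 0.28), which is given as a description because both effects were used to choose the gene. PCs and PBs mutant for *Bhlha15* carried different alleles and had different kinds of control, which cannot be told apart from the cell type.

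*Pdcd10*, whose start lies in the same common Mist1 region but under a separate peak in experiment 1, did not pass the test in any comparison. Control PBs had 22.1 and 21.4 TPM, *Xbp1* cKO PBs 25.6 and 25.1 TPM, CreER PBs 24.2 and 26.6 TPM, wildtype PCs 19.3 and 22.8 TPM, and *Bhlha15* cKO PCs 21.1 and 23.0 TPM. Its log2 differences were 0.01 in *Xbp1* cKO PBs (95% confidence interval -0.24 to 0.27, adjusted p = 0.951, limma), 0.26 in CreER PBs (0.01 to 0.52, adjusted p = 0.459) and 0.09 in *Bhlha15* cKO PCs (-0.15 to 0.33, adjusted p = 0.509). None of these intervals reaches the size of the *Serpini1* differences.

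Among all serpins, *Serpini1* stood 2nd by TPM in both wildtype PC libraries, with 20.6% and 16.6% of the summed serpin TPM. It held 3.87% and 3.56% of it in control PBs, ranking 6th and 7th, and 2.35% and 3.02% in *Bhlha15* cKO PCs, ranking 7th in both libraries. In *Xbp1* cKO PBs it ranked 14th with 0.541% and 0.420%, and in CreER PBs 13th with 0.947% and 1.20%. TPM is corrected for gene length, so that levels of different genes can be set side by side. *Serpina3g* had the highest TPM of all serpins in each of the 10 libraries, and the 9 genes together made up 74.8% to 87.6% of the summed serpin TPM, which was 545 to 868 TPM in PBs and 161 to 221 TPM in PCs.

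The genes whose levels followed *Serpini1* most closely were not serpins. Ranked by Pearson's correlation of log2(scaled TPM + 0.1) over the 10 libraries, among 10793 genes with a mean of at least 5 TPM in a group, the first 5 were *Eif5b* (r = 0.989), a translation initiation factor, *Slc17a5* (r = 0.984), the lysosomal sialic acid exporter, *Bckdk* (r = 0.980), the kinase of branched-chain ketoacid dehydrogenase, *Ap5b1* (r = 0.979), an adaptor protein subunit, and *Men1* (r = 0.970), the menin gene. The points share libraries in 5 groups of 2, so that these values rest mainly on the group means. *Slc17a5* was at 33.6 and 31.8 TPM in control PBs, 16.0 and 17.4 TPM in *Xbp1* cKO PBs, 18.4 and 18.7 TPM in CreER PBs, 56.5 and 46.6 TPM in wildtype PCs, and 17.0 and 16.6 TPM in *Bhlha15* cKO PCs. *Bckdk* was at 107 and 106, 56.0 and 54.6, 56.5 and 57.5, 205 and 170, and 49.2 and 50.3 TPM in the same order of groups. In both genes each mutant library was below each control library, as for *Serpini1*, with smaller folds. Both were picked for following *Serpini1* in these libraries, so that this shared pattern comes with the ranking. Of the other serpins with enough expression, *Serpinb1a* was the most alike (r = 0.673, rank 521 of 10792), followed by *Serpina3f* (r = 0.467), while *Serpinb6a*, *Serpinb6b*, *Serpina3g* and *Serpinh1* had r between -0.28 and -0.22. *Bhlha15* had r = 0.797 and *Pdcd10* r = -0.44.

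Of the 8 other serpins, 7 could be tested in PBs. In *Xbp1* cKO PBs 1 fell, *Serpinb1a*, 2 rose, *Serpinb6a* and *Serpinb6b*, and 4 did not pass the test, where 18.0% of all genes passed as lower and 10.3% as higher. In CreER PBs *Serpinb1a* fell and the other 6 did not pass, where 0.272% of all genes passed as lower and 0.0495% as higher. None rose there by limma, and none did at an unadjusted p under 0.05. In *Bhlha15* cKO PCs 6 were tested, *Serpinb9* fell and the other 5 did not pass, where 16.2% of all genes passed as lower and 13.3% as higher. None rose in PCs, also at an unadjusted p under 0.05. Between the mutant PBs 8 of the 9 serpins were tested, where 17.8% of all genes passed as lower and 9.34% as higher. *Serpini1* was lower in *Xbp1* cKO PBs, *Serpinb6a*, *Serpinb6b* and *Serpinb9* were higher, and 4 did not pass. *Serping1* was below the minimum of 1 TPM in at least 2 libraries everywhere, and *Serpinh1* in PCs.

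**Figure D3:**
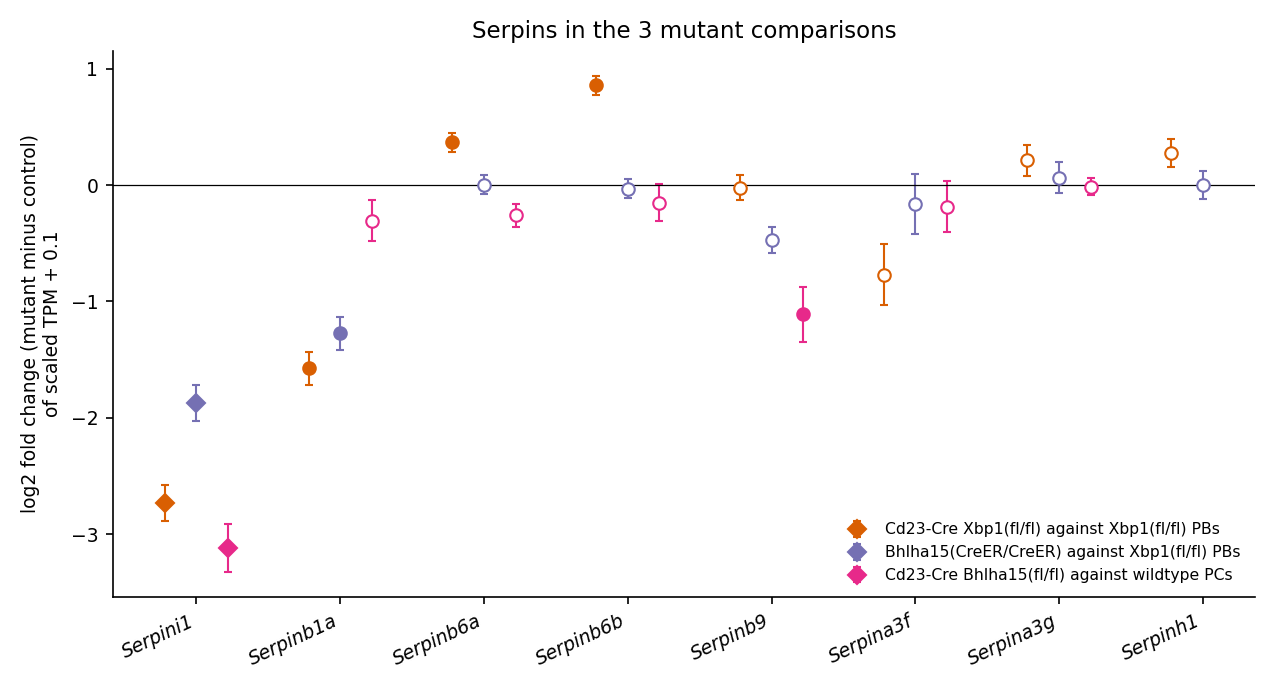
Differences of log2(scaled TPM + 0.1) for each serpin in the comparisons of mutant with control PBs and PCs; bars are standard errors, filled circles passed an adjusted p of 0.05 (limma), open circles did not, and diamonds mark *Serpini1*, which is shown without a test where its values chose it. *Serpini1* lies at -2.73, -1.87 and -3.12, and no other serpin lies below -1.58 in these comparisons.

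*Serpinb1a* is a cytosolic inhibitor of neutrophil elastase, cathepsin G and proteinase 3. It was the only one of these serpins, *Serpini1* not being tested, that passed as lower in both mutant PB genotypes. Control PBs had 47.0 and 46.2 TPM, *Xbp1* cKO PBs 20.5 and 15.8 TPM, and CreER PBs 21.5 and 16.2 TPM, so that neither mutant group overlapped with the controls. It fell by 1.58 on the log2 scale in *Xbp1* cKO PBs (SE 0.14, adjusted p = 8.94e-05, limma) and by 1.27 in CreER PBs (SE 0.14, adjusted p = 0.0104). The former was called under all 14 alternative settings. The latter was lost when the variance prior had no trend with expression (adjusted p = 0.127) and without control PB replicate 1 (adjusted p = 0.148) or replicate 2 (adjusted p = 0.0779).

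In PCs the *Serpinb1a* levels of the groups overlapped. Wildtype PCs had 21.3 and 32.1 TPM and *Bhlha15* cKO PCs 19.8 and 21.9 TPM, a log2 difference of -0.31 (SE 0.18, 95% confidence interval -0.74 to 0.13, adjusted p = 0.236, limma). Without wildtype PC replicate 1, the lower of the controls, the value was -0.57 and passed (adjusted p = 0.0111). The difference between the effect in PCs and that in CreER PBs was 0.98 (SE 0.27, adjusted p = 0.0663) and did not pass, although it was 1.25 and passed without wildtype PC replicate 2 (adjusted p = 0.0216). The mutant groups in PBs and PCs thus came to similar levels, 18.1 to 20.9 TPM in the mean, from controls that differed: *Serpinb1a* was lower in wildtype PCs than in control PBs by a log2 difference of -0.94 (SE 0.19, adjusted p = 0.00141). Between the mutant PBs it differed by -0.30 (SE 0.14, adjusted p = 0.153), which without *Xbp1* cKO replicate 1 was -0.50 and passed (adjusted p = 0.0392). Neutrophils also express *Serpinb1a*: their listed genes summed to 142 and 143 TPM in *Xbp1* cKO PBs, where *Serpinb1a* was lower, and to 480 to 1016 TPM in PCs, and their part in its level was not tested.

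*Serpinb1a* lies on chromosome 13 on the minus strand at chr13:32933961-32943054 (mm9) and had a common Mist1 region at its start, chr13:32942520-32943351, which held 3 copies of CAGCTG, and 3 more regions downstream within 10 kb. One copy lies 15 bases before the annotated start, within the 250 bases upstream at chr13:32943055-32943304, which are shown on the minus strand with the box in capitals for comparison with *Serpini1*. Of the 250-base promoters of 10781 genes tested in PBs, 11.1% held CAGCTG and 1.64% CATATG. Other forms of the CANNTG box were not counted, so that the promoters are compared for CAGCTG and CATATG only.
Serpinb1a promoter: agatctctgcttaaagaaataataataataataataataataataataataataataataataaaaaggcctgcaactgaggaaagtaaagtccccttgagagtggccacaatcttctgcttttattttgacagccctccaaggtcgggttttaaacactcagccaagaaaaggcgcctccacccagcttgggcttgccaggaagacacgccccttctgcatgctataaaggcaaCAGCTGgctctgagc

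*Serpinb6a*, a cytosolic inhibitor of cathepsin G and related proteases, and its paralog *Serpinb6b* rose in *Xbp1* cKO PBs. *Serpinb6b* was at 47.5 and 56.1 TPM in control PBs, 105 and 112 TPM in *Xbp1* cKO PBs and 50.1 and 47.9 TPM in CreER PBs. It rose by 0.86 in *Xbp1* cKO PBs (SE 0.083, adjusted p = 0.000131, limma), a call made in all 14 alternative settings, and its difference in CreER PBs was -0.03 (SE 0.083, 95% confidence interval -0.22 to 0.16, adjusted p = 0.928). Set directly against each other, the mutants differed by 0.89 on the log2 scale (SE 0.083, adjusted p = 0.000108), so that the higher level was measured in *Xbp1* cKO PBs and not in CreER PBs.

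*Serpinb6a* was at 111 and 127 TPM in control PBs, 182 and 172 TPM in *Xbp1* cKO PBs and 128 and 105 TPM in CreER PBs. Its rise was smaller, at 0.37 in *Xbp1* cKO PBs (SE 0.083, adjusted p = 0.0116, limma) and 0.36 against CreER PBs (SE 0.083, adjusted p = 0.0124). The first call was lost without control PB replicate 1 (adjusted p = 0.103) or *Xbp1* cKO replicate 1 (adjusted p = 0.0904), and the second without the latter (adjusted p = 0.0944) or without a variance trend (adjusted p = 0.0526). In PCs both genes were low: *Serpinb6a* was at 14.3 and 13.6 TPM in wildtype and 11.3 and 11.7 TPM in mutant PCs, and *Serpinb6b* at 4.05 and 4.13 TPM in wildtype and 3.52 and 3.73 TPM in mutant PCs. The mutant PC values were below the wildtype values for both, but with log2 differences of -0.26 (adjusted p = 0.0952) and -0.15 (adjusted p = 0.501) neither passed. Exons of *Serpinb6a* overlap 3 genes on the opposite strand, and 1.81% of its 50-base stretches also occur in *Serpinb6b* or *Serpinb6c*, so that its count may hold reads of these genes.

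*Serpinb9* inhibits granzyme B and protects cytotoxic cells from their own granules. It was the only tested serpin that passed as lower in *Bhlha15* cKO PCs, the preselected *Serpini1* not being tested there. Wildtype PCs had 2.94 and 3.85 TPM and mutant PCs 1.46 and 1.505 TPM, without overlap, a log2 difference of -1.11 (SE 0.23, adjusted p = 0.0193, limma). These levels are low, and the call was lost without wildtype replicate 2 (adjusted p = 0.0593) and without mutant replicate 1 (adjusted p = 0.0846) or 2 (adjusted p = 0.0923). In PBs it was at 11.5 and 13.2 TPM in controls, 13.9 and 14.1 TPM in *Xbp1* cKO PBs and 9.47 and 7.79 TPM in CreER PBs. The CreER libraries were thus below the controls here too, with a log2 difference of -0.47 that did not pass (SE 0.11, adjusted p = 0.182), and *Serpinb9* was higher in *Xbp1* cKO than in CreER PBs by 0.45 (SE 0.11, adjusted p = 0.0176). This last call was lost without *Xbp1* cKO replicate 1 (adjusted p = 0.0819) or 2 (adjusted p = 0.0879) or without CreER replicate 2 (adjusted p = 0.0552). The difference between the effects in PCs and PBs was -0.62 (SE 0.21, adjusted p = 0.117).

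*Serpina3g*, an intracellular inhibitor of cysteine cathepsins in lymphocytes, and the neighbouring *Serpina3f* did not pass in any mutant. *Serpina3g* was at 177 and 167 TPM in control PBs, 202 and 263 TPM in *Xbp1* cKO PBs, 169 and 181 TPM in CreER PBs, 70.6 and 68.3 TPM in wildtype PCs and 65.0 and 70.8 TPM in mutant PCs. Its difference in *Xbp1* cKO PBs was 0.21 (SE 0.13, 95% confidence interval -0.10 to 0.52, adjusted p = 0.283, limma), although both mutant libraries were above both controls, and in mutant PCs it was -0.02 (-0.20 to 0.17, adjusted p = 0.892). The former passed on TPM as deposited (0.42, adjusted p = 0.0219) and after quantile normalization (0.38, adjusted p = 0.0365).

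*Serpina3f*, a paralog of the antichymotrypsin group, had the largest standard error of these serpins in the PB comparisons. It was at 10.999 and 9.74 TPM in control PBs, 5.21 and 9.29 TPM in *Xbp1* cKO PBs, 8.12 and 9.93 TPM in CreER PBs, 22.3 and 18.9 TPM in wildtype PCs and 14.3 and 22.2 TPM in mutant PCs. Its difference in *Xbp1* cKO PBs was -0.77 (SE 0.26, adjusted p = 0.0594, limma), and without replicate 2 of that genotype it was -1.18 and passed (adjusted p = 0.00454). It also passed without CreER replicate 1 (adjusted p = 0.0473), with only the 4 libraries compared (adjusted p = 0.0485) and with a minimum of 5 TPM (adjusted p = 0.0374). Against CreER PBs the difference was -0.61 (adjusted p = 0.123), and without replicate 2 of *Xbp1* cKO it was -1.02 and passed (adjusted p = 0.0103). Of its 50-base stretches 8.58%, and of those of *Serpina3g* 11.7%, also occur in each other or in further *Serpina3* genes, so that reads can be shared between them.

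*Serping1*, the C1 inhibitor of the complement system, was listed at 0 in 5 of the 6 PB libraries and at 0.0596 TPM in the other, a *Xbp1* cKO library. In PCs it was at 0.453 and 0.552 TPM in wildtype and 0.405 and 0.381 TPM in mutant libraries. These levels are below the minimum for a test.

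**Figure D4:**
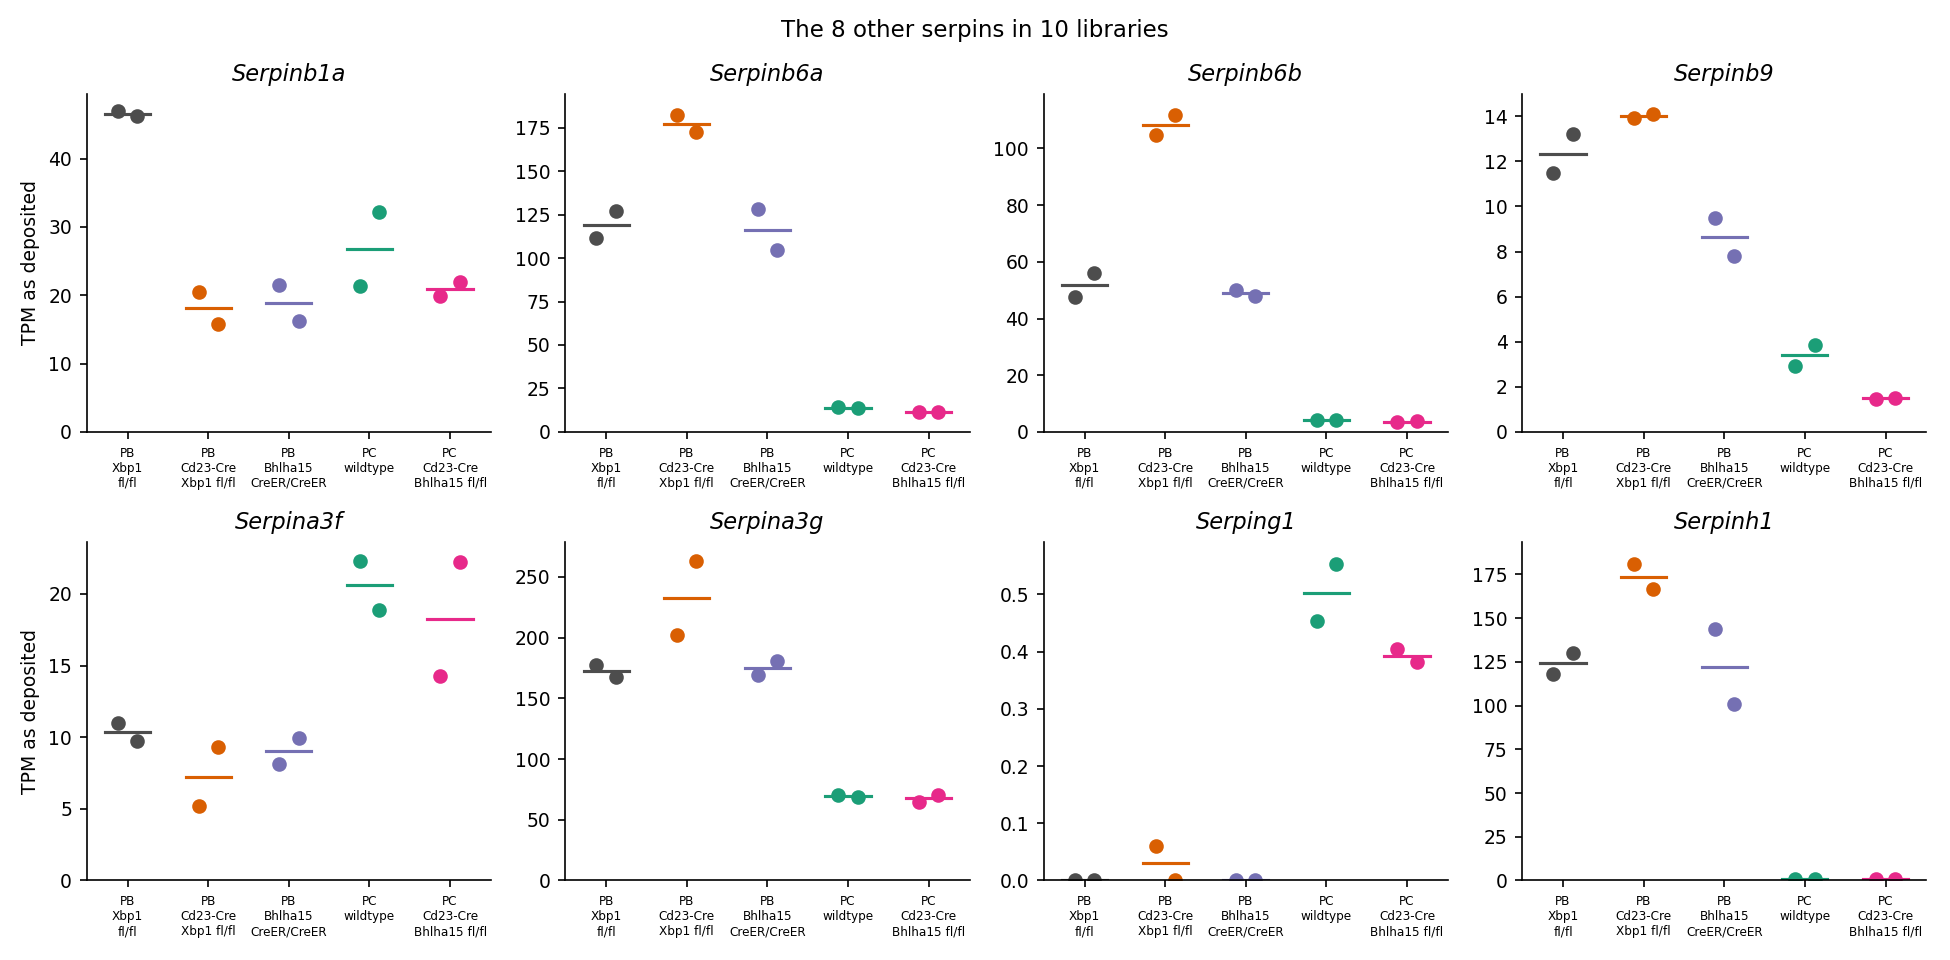
TPM of the 8 serpins other than *Serpini1* in each of the 10 libraries (points) with the group mean (bar), each gene on its own axis. *Serpinb1a* is lower in both mutant PB groups, *Serpinb6b* is higher in *Xbp1* cKO PBs, and *Serpinh1* is above 100 TPM in every PB library and below 1 TPM in every PC library.

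*Serpinh1*, the endoplasmic reticulum chaperone of collagen, was at 118 and 130 TPM in control PBs, 181 and 167 TPM in *Xbp1* cKO PBs and 144 and 101 TPM in CreER PBs. In PCs it was at 0.674 and 0.823 TPM in wildtype and 0.904 and 0.709 TPM in mutant libraries. Its level thus separated all PBs from all PCs, with a log2 difference of -7.30 between wildtype PCs and control PBs (SE 0.15, adjusted p = 4.15e-09, limma). The collagen *Col1a1*, a defining fibroblast gene that B lineage cells are not known to express, was at 460 to 904 TPM in the PB libraries and at 0.332 to 0.451 TPM in the PC libraries, and all 14 genes of the fibroblast list were above 0 in every PB group.

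The *Serpinh1* level kept a nearly fixed ratio to the summed fibroblast list in PBs, at 8.25% to 9.66% of it in the 6 libraries, while the list itself ran from 1042 to 2013 TPM. *Serpinb9b*, a paralog of *Serpinb9*, was at 1.51% to 1.67% of the list. The highest ratio was 1.17 times the lowest for *Serpinh1*, 1.10 times for *Serpinb9b*, 1.37 times for *Serpinb6a*, 2.10 times for *Serpinb6b*, 4.18 times for *Serpinb1a* and 9.32 times for *Serpini1*. The feeder cells of the culture are fibroblasts, and their part in the PB levels of these serpins was not tested. *Serpinh1* itself did not pass in *Xbp1* cKO PBs (0.28, SE 0.12, adjusted p = 0.120, limma), where the fibroblast list was at 1852 and 2013 TPM against 1320 and 1576 TPM in the controls. It passed there on TPM as deposited (0.48, adjusted p = 0.0362), in a separate fit when only the 4 libraries compared were fitted (adjusted p = 0.0167), and without CreER replicate 1 (adjusted p = 0.0175) or 2 (adjusted p = 0.0162). Against CreER PBs it was 0.28 (adjusted p = 0.122), and without CreER replicate 1 it was 0.46 and passed (adjusted p = 0.00628).

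**Figure D5:**
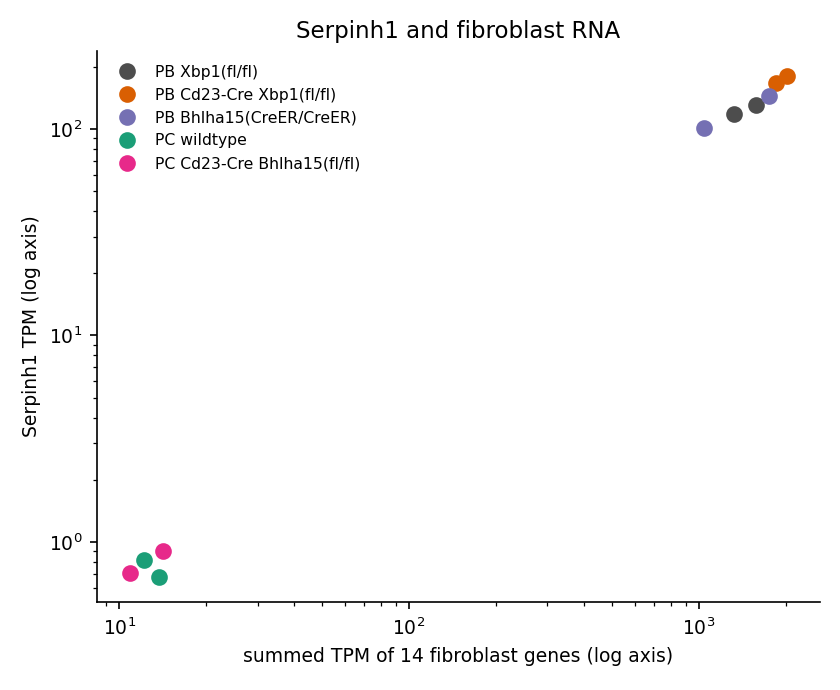
*Serpinh1* level against the summed level of 14 fibroblast genes in the 10 libraries, both in TPM on log axes. The 6 PB libraries lie at 1042 to 2013 TPM of the list and 101 to 181 TPM of *Serpinh1*, and the 4 PC libraries at 10.9 to 14.1 and 0.674 to 0.904 TPM.

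Between wildtype PCs and control PBs, the 8 serpins that could be tested all passed. *Serpinh1* met the minimum level through the PBs alone, so that its call follows from that minimum. *Serpini1* and *Serpina3f* were higher in PCs, the latter by 0.87 (SE 0.28, adjusted p = 0.0199, limma), and 6 were lower: *Serpina3g* by a log2 difference of -1.42, *Serpinb1a* of -0.94, *Serpinb9* of -1.95, *Serpinb6a* of -3.20, *Serpinb6b* of -3.74 and *Serpinh1* of -7.30, with adjusted p from 4.15e-09 to 0.00141. The share of genes that passed in this comparison was 38.4% lower and 37.6% higher, as given for *Serpini1*, so that a call by itself is not particular to serpins. The *Serpina3f* call was lost after quantile normalization (adjusted p = 0.0519) and without control PB replicate 2 (adjusted p = 0.0979) or wildtype PC replicate 1 (adjusted p = 0.103).

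None of the 7 serpins tested besides *Serpini1* passed the test of a difference between the *Bhlha15* effects in PCs and PBs by limma, where 4.17% of all genes passed as lower and 1.94% as higher. At an unadjusted p under 0.05, 1 was lower, *Serpinb9*, and 1 was higher, *Serpinb1a*.

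Mist1 regions were found near most of these serpins, as near most genes. Of the 9, 4 had a common region within 1 kb of a transcription start, *Serpini1*, *Serpinb1a*, *Serpinb6a* and *Serpina3g*, and 6 had one in the gene or within 10 kb, these and *Serpina3f* and *Serpinh1*. Of 10781 genes tested in PBs and annotated, 63.2% had a region at a start and 81.0% within 10 kb. *Serpinb6b*, *Serpinb9* and *Serping1* had none within 10 kb, and *Serpinb9* had a peak at its start in experiment 2 only. *Serpina3g* lies at chr12:105474455-105480149 on the plus strand, *Serpinb6a* at chr13:34009787-34094663 on the minus strand and *Serpinb9*, which had no common region within 50 kb in these lists, at chr13:33095119-33109826 on the plus strand. Binding was mapped in LPS-stimulated PBs and expression was measured in other PBs and in PCs, and the relation of binding to the expression differences was not tested.

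The 11 other serpins that reached 1 TPM in at least 2 libraries were counted in the same comparisons, and their few calls are to be read against the shares of all genes given for the 8 serpins above. In *Xbp1* cKO PBs, where 18.0% of all genes passed as lower and 10.3% as higher, 9 were tested, and *Serpinc1*, which encodes the coagulation inhibitor antithrombin, rose from 11.1 and 12.8 TPM to 23.9 and 25.1 TPM, by 0.83 on the log2 scale (SE 0.13, adjusted p = 0.00182, limma). It was at 10.2 and 11.6 TPM in CreER PBs, from which it differed by 0.91 (adjusted p = 0.0011), and so had the pattern of *Serpinb6b*. None of the others passed in this comparison, and 2 were lower and 2 higher, *Serpinc1* among them, at an unadjusted p under 0.05. In CreER PBs, where 0.272% passed as lower and 0.0495% as higher, none of 9 passed and 1 was lower at an unadjusted p under 0.05. In *Bhlha15* cKO PCs, where 16.2% passed as lower and 13.3% as higher, none of 7 passed and 1 was lower at an unadjusted p under 0.05. This last is *Serpinf2*, the plasmin inhibitor, at 2.74 and 2.63 TPM in wildtype and 1.64 and 1.502 TPM in mutant PCs (-0.72, adjusted p = 0.0639). No one of the 11 passed the test of the difference between the PC and PB effects, at an unadjusted p under 0.05 either. Between wildtype PCs and control PBs 7 were lower and 4 higher, where 38.4% of all genes passed as lower and 37.6% as higher. *Serpinb7* rose by 3.31 on the log2 scale, from 0.999 and 0.954 TPM in control PBs to 10.6 and 12.2 TPM in wildtype PCs. *Serpinf2*, at 0.0614 and 0.274 TPM in control PBs, rose by 3.41. It met the minimum level through the PCs alone, so that its direction follows from that minimum.

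Proteases were taken as a list of 24 genes, which holds targets of serpins and related proteases. Not each of them is a known target of the serpins described here. In *Xbp1* cKO PBs (18.0% of all genes lower, 10.3% higher) 10 were tested, 4 fell, the lysosomal cathepsins *Ctsb*, *Ctsc*, *Ctsh* and *Ctss*, and 1 rose, *Ctsl*, with a median log2 difference of -0.06 over the list against 0.00414 over all genes. *Ctsh* fell most, from 718 and 751 TPM to 310 and 307 TPM (-1.46, SE 0.095, adjusted p = 1.33e-05, limma). Cathepsins are abundant in macrophages, whose listed genes summed to 32.7 and 35.6 TPM in *Xbp1* cKO PBs and 135 and 137 TPM in the controls. Only 2 of these 10 genes could be tested in PBs, and they moved apart: *Cd68* fell by 3.07 and *Lyz2* rose by 1.26 on the log2 scale (adjusted p = 0.000215 for *Lyz2*, limma), while *C1qa* and *C1qb* were at 0 in the controls. The part of macrophage RNA in the cathepsin differences was not tested. In CreER PBs 0.272% of all genes passed as lower and 0.0495% as higher. None of the 10 proteases passed there by limma or at an unadjusted p under 0.05, with a median of 0.04. In *Bhlha15* cKO PCs 13 were tested, a count each way that is near the 16.2% of all genes lower and 13.3% higher: 2 fell, *Ctsc* (-0.67, adjusted p = 0.00408) and *Ctsh* (-0.19, adjusted p = 0.0452), and 2 rose, *Ctsb* (0.40, adjusted p = 0.0171) and *Gzma* (0.69, adjusted p = 0.00641), with a median of -0.06 against 0.01 over all genes. *Gzma*, a granzyme of T and NK cells, moved beside T and NK cell genes that summed to 77.9 and 79.2 TPM in wildtype and 82.9 and 101 TPM in mutant PCs, and their part in it was not tested. *Ctsb*, a target of *Serpina3g*, thus differed in opposite directions in *Xbp1* cKO PBs, where it went from 460 and 455 TPM to 362 and 330 TPM, and in mutant PCs, where it went from 407 and 369 TPM to 511 and 498 TPM.

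Tissue plasminogen activator itself, *Plat*, the main known target of *Serpini1*, did not pass in either mutant PB genotype and was below the minimum for a test in PCs. It was at 10.96 and 15.8 TPM in control PBs, 18.6 and 16.4 TPM in *Xbp1* cKO PBs and 15.5 and 9.59 TPM in CreER PBs, and at 0 to 0.137 TPM in PCs. In the PBs it was at 0.830% to 1.001% of the summed fibroblast list, a ratio that varied 1.21 times, and the part of the feeder cells in it was not tested. In wildtype PCs, where *Serpini1* was highest, *Plat* was at 0 and 0.0361 TPM.

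Of 5 receptors that take up serpin and protease complexes, 2 could be tested in PBs and 3 in PCs. In *Xbp1* cKO PBs 1 passed as lower, where 18.0% of all genes passed as lower and 10.3% as higher. In *Bhlha15* cKO PCs 1 passed as higher, where 16.2% of all genes passed as lower and 13.3% as higher. Both calls, in opposite directions, were of *Lrp8*, a receptor of the low-density lipoprotein receptor family. It was at 7.95 and 9.35 TPM in control PBs, 3.07 and 3.35 TPM in *Xbp1* cKO PBs and 10.4 and 8.63 TPM in CreER PBs, and at 2.41 and 3.78 TPM in wildtype and 6.05 and 5.599 TPM in mutant PCs. It fell by 1.60 on the log2 scale in *Xbp1* cKO PBs (SE 0.14, adjusted p = 7.48e-05, limma) and rose by 0.94 in *Bhlha15* cKO PCs (SE 0.23, adjusted p = 0.0286). *Lrp1*, the other receptor tested in PBs, and *Lrp1* and *Sorl1* in PCs did not pass in a mutant. The 9 collagens that *Serpinh1* helps to fold did not pass in either mutant PB genotype, also at an unadjusted p under 0.05. In CreER PBs 0.272% of all genes passed as lower and 0.0495% as higher. All 9 were lower in wildtype PCs than in control PBs, where 38.4% of all genes passed as lower. Their median log2 difference there was -6.72. Like *Serpinh1*, these collagens met the minimum level through the PBs alone, so that this direction follows from that minimum.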

How the data were processed

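mRNA-seq was done with 2 libraries per group and Mist1 binding was mapped in 2 experiments. Per the labels and the study's methods, the authors trimmed 50-base single reads with cutadapt, aligned them to mm9 with STAR 2.4.2, counted them with featureCounts 1.5 and deposited TPM per gene, leaving out immunoglobulin and T cell receptor genes. TPM sums to 1000000 in each library and keeps no read depth, so that depth is unknown and counting error cannot be given. Genes marked as overlapping by a suffix (*Serpinb6a*, *Serpina3f* and *Serpina3g* among the 9) were matched after removing it. The library kit is given without its strand property in the labels and as directional in the methods. ChIP reads were aligned with Bowtie 1.0.0, handled with SAMtools 1.9 and Picard 2.18.27, and peaks were called per experiment by the authors with MACS against input and deposited as positions.

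Libraries were scaled by the median of ratios, and log2(scaled TPM + 0.1) was fitted with limma 3.58.1 in R 4.3.3 (empirical Bayes with a trend, two-sided, Benjamini-Hochberg adjustment over all genes), for genes at 1 TPM or more in at least 2 libraries of the model. The 3 PB groups shared a model, the PC groups had their own, and all 5 groups entered the comparisons of PCs with PBs. A gene passed at an adjusted p under 0.05. Fold changes are on this scale and understate those of low genes. The fit was tested on simulated data. Scaling changes the balance: on TPM as deposited the median log2 difference of all genes was 0.21 in Cd23-Cre Xbp1(fl/fl) PBs (0.00414 when scaled), with 1357 lower and 3423 higher calls in place of 2186 and 1250. It was 0.26 between the mutant PBs (0.01 when scaled), with 1266 and 3977 calls in place of 2155 and 1132, and 0.12 between wildtype PCs and control PBs. Changes are given relative to this median.

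The 9 serpins, the marker, protease, receptor and collagen lists and the tests were chosen with earlier results of these data known. Named are the 9 serpins, other serpins at 1 TPM in at least 2 libraries, the neighbours of *Serpini1*, the 5 genes most like it, the targeted genes and list members. The alternatives were other pseudocounts (1 and 0.01), other filters, TPM as deposited, quantile normalization, no variance trend, only the libraries compared, and each library left out in turn. Peaks were compared with bedtools 2.31.1 and genes placed with an mm9 annotation. The labels, series text and methods differ in places on cell type and control genotype of some libraries, and the sample labels were followed. Values of 1 further serpin are not reported here.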

Additional observations from a re-analysis of the deposited data

How the results depend on the processing

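No paired analysis was possible because the labels give no replicate numbers. *Serpini1* kept its direction in its 3 mutant comparisons under each alternative, from -2.89 to -2.47 in Cd23-Cre Xbp1(fl/fl) PBs, -2.02 to -1.72 in Bhlha15(CreER/CreER) PBs and -3.36 to -2.87 in Cd23-Cre Bhlha15(fl/fl) PCs. In Cd23-Cre Xbp1(fl/fl) PBs the serpins that fell (1) were 2 with a 5 TPM minimum or with only the libraries compared, and 1 to 2 with a library left out, and those that rose (2) were 4 on TPM as deposited and 1 to 3 with a library left out. In Bhlha15(CreER/CreER) PBs the count that fell (1) was 0 without the variance trend and 0 to 1 with a library left out. In mutant PCs it (1) was 0 with a 5 TPM minimum, where *Serpinb9* is not tested, and 0 to 2 with a library left out. Between the mutant PBs the 3 that rose were 5 on TPM as deposited or after quantile normalization, where *Serpina3g* and *Serpinh1* also passed, and 1 to 4 with a library left out, and the 1 that fell was 1 to 2. Between wildtype PCs and control PBs the 2 that were higher were 1 after quantile normalization and 0 to 2 with a library left out. For the difference of the effects, 0 higher became 0 to 1 with a library left out, *Serpinb1a* without wildtype PC replicate 2 (1.25, adjusted p = 0.0216).

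Sign changes were confined to serpins that had not passed. On TPM as deposited the log2 difference was 0.18 for *Serpinb9* in Cd23-Cre Xbp1(fl/fl) PBs, -0.040 for *Serpinb6a* and -0.042 for *Serpinh1* in Bhlha15(CreER/CreER) PBs and 0.00061 for *Serpina3f* in the difference of effects. After quantile normalization it was 0.0046 for *Serpinb9* in Cd23-Cre Xbp1(fl/fl) PBs, -0.036 for *Serpinb6a*, -0.00033 for *Serpina3g* and -0.031 for *Serpinh1* in Bhlha15(CreER/CreER) PBs, 0.0087 for *Serpina3g* in PCs and 0.012 for *Serpina3g* in the difference of effects. With only the libraries compared it was -6.8e-05 for *Serpinh1* in Bhlha15(CreER/CreER) PBs. With a library left out, values ran from -0.081 to 0.038 for *Serpinb9* in Cd23-Cre Xbp1(fl/fl) PBs. In Bhlha15(CreER/CreER) PBs they ran from -0.062 to 0.074 for *Serpinb6a*, -0.11 to 0.045 for *Serpinb6b*, -0.38 to 0.062 for *Serpina3f*, -0.057 to 0.19 for *Serpina3g* and -0.18 to 0.18 for *Serpinh1*. In PCs they ran from -0.50 to 0.14 for *Serpina3f* and -0.079 to 0.052 for *Serpina3g*, between the mutant PBs from -0.041 to 0.33 for *Serpina3g*, and in the difference of effects from -0.32 to 0.31 for *Serpina3f*, -0.16 to 0.037 for *Serpina3g* and -0.081 to 0.33 for *Serpinh1*. The causes were not tested. Where a library was left out, the lone one is assumed to vary like the other groups. Of values for single genes under an alternative, 615 kept direction and side of the threshold, 18 were no longer called, 19 became called, 36 changed sign and 3 moved by more than the spread. Depth is unknown for all libraries and limits the genes under 1 TPM.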
